A study of Mus musculus with 12 samples.

Results

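The set comprises 5 mouse genes of steroid hormone action and supply: the receptors Esr1 and Nr3c1, the enzymes Hsd3b1 and H2-Ke6 (also written Hsd17b8), and the cholesterol carrier Star. Its members were taken by gene symbol from the platform's probe annotation, and no measured value entered that rule. The choice was made with earlier results of these data known. The members correspond to 7 of the 15600 cDNA clones on the array, 3 of them for Esr1. After filtering, each gene was represented by its brightest clone among 9955 genes and unnamed clones tested.

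Kidney cortex was measured in 3 menopausal/diabetic mice, treated with VCD and STZ, and in 3 diabetic mice, treated with STZ. STZ (streptozotocin) destroys the insulin-making beta cells and was given to both groups, whereas VCD (vinylcyclohexene diepoxide) destroys the small ovarian follicles and serves as a mouse model of slow ovarian failure. RNA collected at 6 weeks after STZ was amplified, labelled with Alexa Fluor 546 or Alexa Fluor 647 and hybridised to 12 arrays, each carrying a pair of animals. Of these arrays, 6 paired a menopausal/diabetic with a diabetic animal, 3 paired menopausal/diabetic animals and 3 paired diabetic animals, so that each animal was on 4 arrays. The labels name no strain, sex or age. As both groups received STZ, the comparison concerns VCD on a diabetic background, and ovarian failure cannot be told apart from other effects of VCD.

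Steroid hormones are made from cholesterol. Star moves cholesterol into mitochondria, where the first enzyme cuts its side chain, and dehydrogenases of the HSD3B family then turn the products into precursors of progesterone, corticosteroids and sex steroids. Enzymes of the HSD17B family interconvert weak and strong estrogens and androgens. Estrogen and glucocorticoid pass into cells, release their receptors from chaperones and act through them as transcription factors. Kidney cells respond to both hormones, while the adrenal cortex, which lies beside the kidney, and the gonads are the main sources of circulating steroids.

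The sequences upstream of Esr1 and Hsd3b1 are shown because the log ratios of these genes were the most alike among the clones standing for the members over the 12 arrays (Pearson r = 0.71, a description over arrays that share animals and dyes). With the other Esr1 clones, Hsd3b1 correlated at r = 0.26 and r = -0.22. Each window runs from 250 bases before to 50 bases after a RefSeq gene start in GRCm38.p6, on the strand of the gene, and capitals mark CCAAT, a common promoter motif chosen after the windows had been read. Hsd3b1 lies on the minus strand at chr3:98859745-98860044, and the more upstream of the 2 windows of Esr1 lies on the plus strand at chr10:4611739-4612038.
Hsd3b1: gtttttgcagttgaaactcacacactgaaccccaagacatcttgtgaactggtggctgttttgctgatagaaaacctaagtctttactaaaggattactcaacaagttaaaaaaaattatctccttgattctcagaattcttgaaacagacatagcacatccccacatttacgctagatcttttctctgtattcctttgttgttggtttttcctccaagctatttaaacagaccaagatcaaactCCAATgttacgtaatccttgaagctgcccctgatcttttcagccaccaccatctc
Esr1: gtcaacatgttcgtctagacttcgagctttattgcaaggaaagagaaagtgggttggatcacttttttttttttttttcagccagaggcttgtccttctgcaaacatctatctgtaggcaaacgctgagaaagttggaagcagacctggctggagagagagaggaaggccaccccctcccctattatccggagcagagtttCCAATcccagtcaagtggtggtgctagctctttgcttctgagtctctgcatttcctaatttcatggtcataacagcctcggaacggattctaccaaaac
The CCAAT begins 5 bases before the Hsd3b1 start and 49 bases before the Esr1 start, and on either strand the motif (CCAAT or ATTGG) occurs in 37.4% of the 32851 RefSeq windows. Neither window holds the estrogen receptor half-site AGGTCA or the glucocorticoid receptor half-site AGAACA on either strand, and nor do the second Esr1 window and the H2-Ke6 window. These half-sites occur in 16.3% and 19.0% of all windows. A match or its absence describes only the letters of these windows.

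Several properties of the arrays touch all values below. The median net intensity of an array was 25.3 to 209 for Alexa Fluor 546 and 14.6 to 107 for Alexa Fluor 647, and the scanner software called 30.5% to 57.4% of spots detected. At an adjusted p under 0.05 (limma's moderated F test on arrays), 146 features (1.47%) differed among the diabetic animals and 0 (0%) among the menopausal/diabetic animals. At an unadjusted p under 0.05 there were 1306 (13.1%) among the diabetic and 513 (5.15%) among the menopausal/diabetic animals. This test does not say which animal differs. The proximal tubule markers, of which 3 of 13 were on the array, had a median log2 level of -1.15 in diabetic animal 3. In the other 5 animals it was 0.03 to 0.33. In the 3 print blocks of 1 corner of the slide, 31.3% of features had an unadjusted p under 0.05 in the group comparison, against 7.04% elsewhere. The columns of the deposited log2 table matched other arrays than those they are named for, so that levels rest on the titles of the scanner files. Transcript levels of a tissue cannot tell fewer cells of a type from less RNA per cell.

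None of the 5 genes passed the adjusted test between the groups. Esr1, Nr3c1 and Hsd3b1 had higher mean levels in menopausal/diabetic kidneys and H2-Ke6 and Star lower ones, with differences of -0.17 to 0.13 on the log2 scale. Over all 9955 features, limma called 0 (0%) at a Benjamini-Hochberg adjusted p under 0.05, with 0.239 as the smallest value, while 833 (8.37%) had an unadjusted p under 0.05. Of the members, 1 of 5 (Star) had an unadjusted p under 0.05, in the direction that 3.25% of all features took. The median difference was 0.06 for the members and -0.002 for all features, and the median absolute difference of all features was 0.06. Levels are on the log2 scale with the average of all 6 animals at 0. Differences are menopausal/diabetic minus diabetic, with limma's standard error over 3 animals per group, moderated across all features. This error and its interval rest on the scatter of the fitted animal levels. The residual SD of the arrays around those levels does not enter them.

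Esr1 encodes estrogen receptor alpha, the main estrogen receptor of the mouse kidney. Its brightest clone, detected on 11 of 12 arrays, had levels of 0.01, 0.09 and -0.01 in the menopausal/diabetic animals, against -0.01, 0.02 and -0.09 in the diabetic animals. The groups overlapped, diabetic animal 3 being lowest. The difference was 0.06 ± 0.05 (95% interval -0.07 to 0.19, adjusted p = 0.836, limma), an interval that reaches a fold of 1.14 at its upper end. This clone had the smallest residual SD between arrays of the 7 clones, 0.09, smaller than that of 87.1% of features. A small residual SD is no measure of signal, as the dimmest Esr1 clone, detected on 2 arrays, had 0.12.

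The other clones of Esr1 did not follow the first. The second clone, detected on 8 arrays, had levels of 0.09, -0.18 and 0.03 in menopausal/diabetic animals, against -0.18, 0.35 and -0.11 in diabetic animals. Its highest value was that of diabetic animal 2, and its difference was -0.04 ± 0.15. The dimmest clone lay in the corner blocks, was detected on 2 arrays and had a difference of 0.05 ± 0.05. Over the 12 arrays, the brightest clone correlated with the second at r = 0.06 and with the dimmest at r = 0.02, and the second with the dimmest at r = -0.42. These correlations describe arrays that share animals and dyes. The mean of the clones that passed the filter gave a difference of 0.02.

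Nr3c1 encodes the glucocorticoid receptor, which mediates the metabolic and anti-inflammatory actions of corticosterone in mice. Its levels were 0.09, 0.04 and 0.08 in menopausal/diabetic animals, against -0.06, 0.08 and -0.22 in diabetic animals. The menopausal/diabetic values lay close together and diabetic animal 2 lay among them, whereas diabetic animal 3 was lowest. The difference was 0.13 ± 0.08 (95% interval -0.06 to 0.33, adjusted p = 0.688, limma). The clone was near background: it was detected on 5 of 12 arrays and on none of the 4 arrays that carried menopausal/diabetic animal 3, and 3 of its 24 net intensities were at or under 0. With plain background subtraction the difference was 1.16, and with no correction 0.06.

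**Figure D1:**
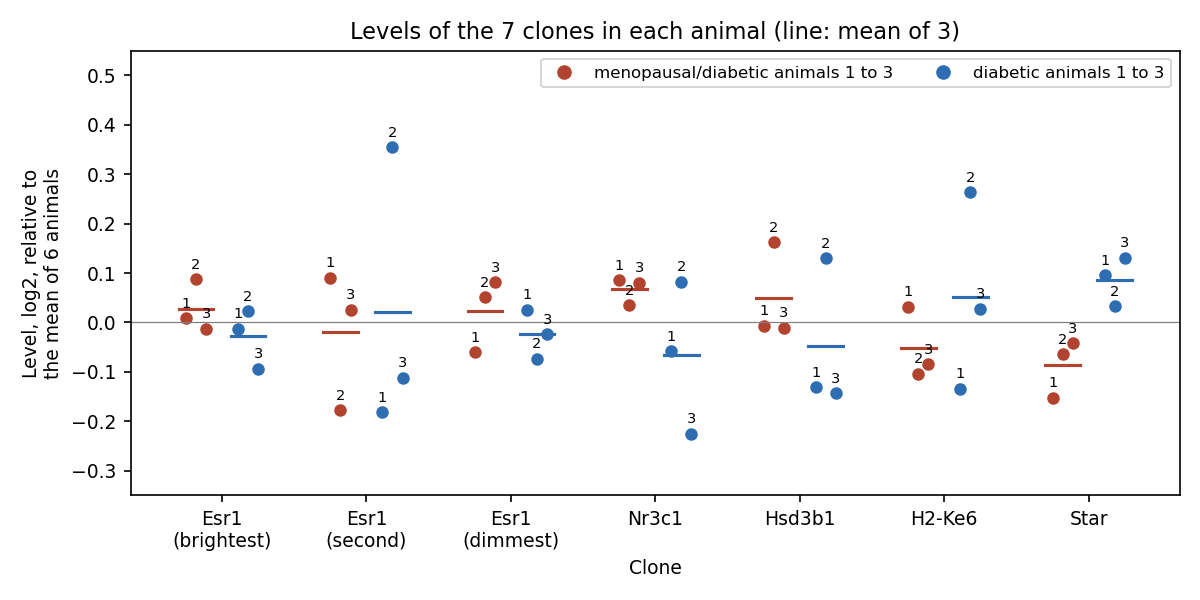
Log2 level of each of the 7 clones in each animal, relative to the mean of the 6 animals, with menopausal/diabetic animals (red) left of diabetic animals (blue), digits for animal numbers and lines for group means. Star is the clone whose groups do not overlap, from -0.15 to -0.04 in menopausal/diabetic animals and from 0.03 to 0.13 in diabetic animals.

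Hsd3b1 encodes the isoform of 3-beta-hydroxysteroid dehydrogenase that predominates in mouse adrenal gland and gonads. The clone was detected on all 12 arrays, with net intensities of 95.8 to 3516 and a median of 389. Its levels were -0.01, 0.16 and -0.01 in menopausal/diabetic animals, against -0.13, 0.13 and -0.14 in diabetic animals. Animal 2 was the highest in each group, and the groups overlapped. The difference was 0.10 ± 0.09 (95% interval -0.12 to 0.32, adjusted p = 0.830, limma). Without diabetic animal 2 it was 0.27, with an unadjusted p of 0.0136 and an adjusted p of 0.248 (limma). Leaving out diabetic animal 3 instead gave -0.005. The genes of this family are close copies of each other, and the files do not say how far the clone also binds their cDNA. Hsd3b4, the family member known from mouse kidney, had a difference of -0.12 ± 0.14.

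H2-Ke6 encodes a dehydrogenase of the HSD17B family that converts estradiol to the weaker estrone and also takes part in mitochondrial fatty acid synthesis. It was detected on all 12 arrays. Its levels were 0.03, -0.10 and -0.09 in menopausal/diabetic animals, against -0.13, 0.26 and 0.03 in diabetic animals. The diabetic animals held both the lowest and the highest value. The difference was -0.10 ± 0.10 (95% interval -0.35 to 0.14, adjusted p = 0.841, limma).

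The arrays of H2-Ke6 disagreed more than those of nearly all other features, although the clone was bright. Its residual SD between arrays was 0.55, and 2.01% of features had a larger one. The standard error and interval above rest on the scatter of the animal levels, and this residual SD does not enter them. Along each closed loop of arrays every animal occurs equally often in each dye, so animal levels cancel and the mean Alexa Fluor 546 over 647 ratio of a loop holds the dye term plus array error. For H2-Ke6 it was 0.43 over the 6 arrays between the groups, 0.0009 over the 3 arrays among menopausal/diabetic animals and -0.37 over the 3 among diabetic animals. This range of 0.80 was exceeded by 0.512% of features, and the median range was 0.17. The ranges of the other members were 0.03 for Esr1, 0.04 for Star, 0.10 for Nr3c1 and 0.13 for Hsd3b1. On the array of diabetic animals 1 and 2, the log2 ratio was -0.93 for H2-Ke6 and -0.85 for the second Esr1 clone. Those clones lie in adjacent print blocks, whose median ratios on that array were -0.16 and -0.24, and correlated at r = 0.75 over the 12 arrays. With a loess curve for each block, the ratios on that array were -0.47 and -0.43. The part of slide position in their likeness was not tested further.

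Star encodes the steroidogenic acute regulatory protein, which controls the rate of steroid synthesis in adrenal and gonad. Its levels were -0.15, -0.06 and -0.04 in menopausal/diabetic animals, against 0.10, 0.03 and 0.13 in diabetic animals. Every menopausal/diabetic level lay under every diabetic level, which held for 1 of the 5 members and for 14.3% of all features, 6.64% with menopausal/diabetic animals below and 7.62% with them above. The difference was -0.17 ± 0.05 (95% interval -0.30 to -0.05), a fold of 0.887, with an unadjusted p of 0.0153 and an adjusted p of 0.537 (limma). The clone's residual SD between arrays, 0.22, does not enter this standard error. From the 6 between-group arrays alone, the same difference had an unadjusted p of 0.235 (limma). By p in the main setting, Star ranked 273 among the 9955 features.

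The difference of Star rested on the arrays that set diabetic animal 3 against a menopausal/diabetic animal. With the dye term subtracted, the menopausal/diabetic over diabetic log2 ratio was -0.57 for animal 1 over diabetic 3 and -0.32 for animal 2 over diabetic 3. It was -0.15 for animal 1 over diabetic 2, -0.04 for animal 3 over diabetic 2, -0.004 for animal 3 over diabetic 1 and 0.05 for animal 2 over diabetic 1. Star was not detected on either array that set a menopausal/diabetic animal against diabetic animal 3, and was detected on the other 10. On the first of these, its 2 spots had net intensities of -56.4 and 136 in the channel of menopausal/diabetic animal 1, and of 71.3 and 362 in that of diabetic animal 3. The difference was -0.03 without diabetic animal 3 and -0.07 without menopausal/diabetic animal 1 (adjusted p = 0.848, limma). Without the single array of these animals, an alternative added after the data were seen, it was -0.08 (adjusted p = 0.769, limma). With arrays lacking detection left out, also added later, it was 0.01 (adjusted p = 0.962, limma).

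**Figure D2:**
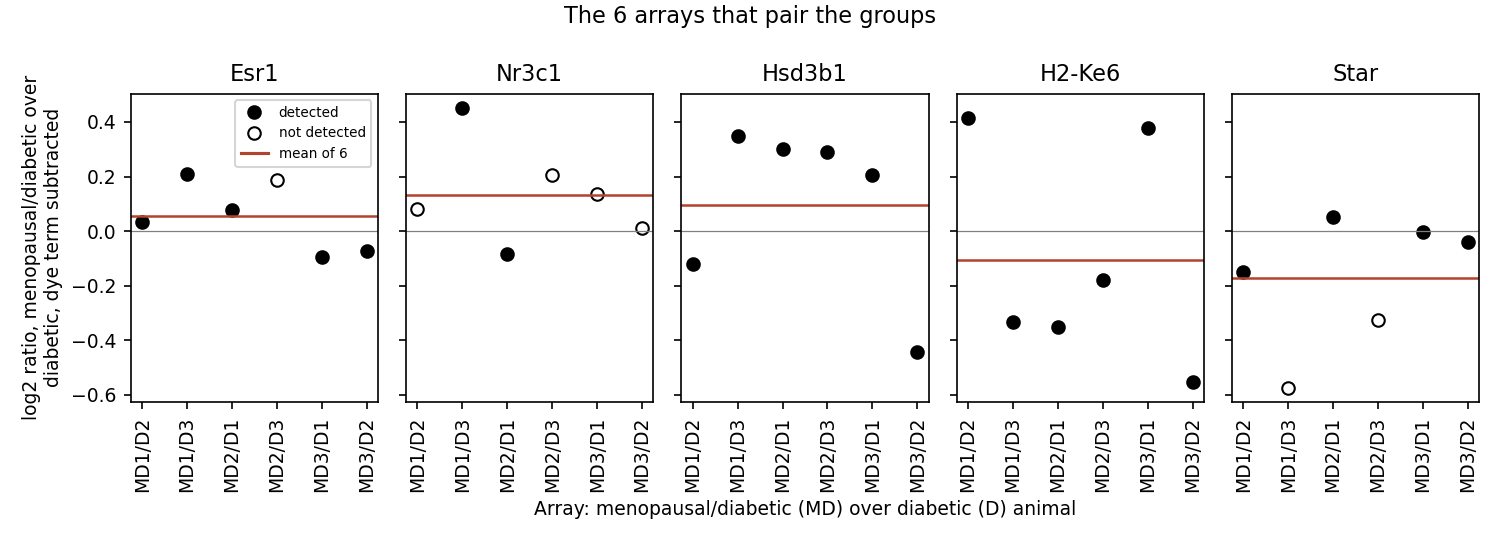
Log2 ratio of menopausal/diabetic (MD) over diabetic (D) animal, dye term subtracted, on each of the 6 arrays that pair the groups, for the clone standing for each gene, with filled points for arrays on which it was detected, open points for the others and a red line for the mean. The lowest ratios of Star, -0.57 and -0.32, are open points of diabetic animal 3, while the ratios of H2-Ke6 spread from -0.55 to 0.42.

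Diabetic animal 3 weighed on the other members as well. Without it, all 5 differences fell below 0.5 times their value or changed sign, and the largest left was 0.03 in size. The count was 3 of 5 without menopausal/diabetic animal 1, 2 without menopausal/diabetic animal 2 and 1 without diabetic animal 1. It was 0 without menopausal/diabetic animal 3 and 0 without diabetic animal 2. These counts are not given over all features, so they do not set the members apart. In diabetic animal 3, Esr1, Nr3c1 and Hsd3b1 had their lowest level and Star its highest. No member differed among the animals of a group at an adjusted p under 0.05 in limma's F test, the lowest being 0.319, for Nr3c1 among diabetic animals.

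**Figure D3:**
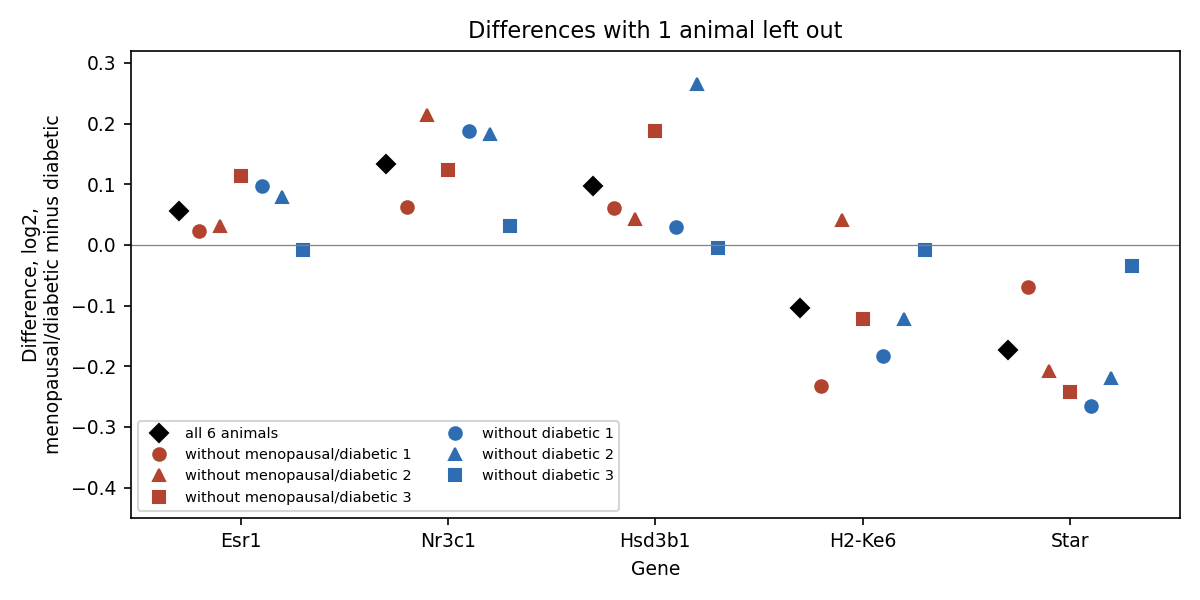
Difference of each gene on the log2 scale, menopausal/diabetic minus diabetic, over all 6 animals (black) and with each menopausal/diabetic (red) or diabetic (blue) animal left out. Without diabetic animal 3 (blue squares) the differences lie between -0.03 and 0.03.

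Markers of adrenal cortex were read because Star and Hsd3b1 are adrenal genes and the gland adjoins the kidney. Of 13 such markers, 6 were on the array. Cyp11a1, the side-chain cleavage enzyme, Mc2r, the receptor for adrenocorticotropin, and Nr5a1, the factor that sets adrenal identity, were detected on 0 of 12 arrays. Scarb1, a lipoprotein receptor also found in other tissues, was detected on 11. Th, the medullary enzyme of catecholamine synthesis, was detected on 0 arrays. The kidney markers Lrp2 and Miox of proximal tubule and Calb1 of distal tubule were detected on all 12, and no marker of fat around the kidney was on the array. Podxl, of podocytes and endothelium, was detected on 12 arrays and Emcn, of endothelium, on 11, and of the leukocyte markers Lyz2 was detected on 12 and C1qb on 9.

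Of 13 other steroid receptors and close relatives, 4 were on the array and 3 were measured, of which 0 passed the adjusted test and 0 the unadjusted one. Pgrmc1, a membrane protein that binds heme and is linked to progesterone action, had levels of -0.25, 0.13 and -0.14 in menopausal/diabetic animals, against -0.22, -0.13 and 0.61 in diabetic animals. Diabetic animal 3 was the highest of all, and the difference was -0.17 ± 0.23. Its relative Pgrmc2 had 0.03 ± 0.04, detected on 2 arrays, and the orphan receptor Esrra, a regulator of mitochondrial genes, had -0.01 ± 0.05.

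Of 26 other genes of steroid synthesis and transport, 9 were on the array and 8 were measured, with 0 past the adjusted test and 1, on the higher side, at an unadjusted p under 0.05. Their median difference was 0.01. The exception, Cyb5a, a cytochrome that aids the lyase step of androgen synthesis, had levels of 0.06, 0.19 and 0.25 in menopausal/diabetic animals, against -0.47, -0.004 and -0.01 in diabetic animals. Its difference of 0.33 ± 0.13 (adjusted p = 0.592, limma) was measured in the corner blocks and was -0.02 with a loess curve for each block. Cyp17a1, the enzyme of that lyase step, had 0.10 ± 0.06 and was detected on 3 arrays. The mitochondrial membrane protein Tspo had -0.15 ± 0.19 and the lipoprotein receptor Scarb1 -0.21 ± 0.19. Stard5, a cytosolic sterol carrier, had 0.04 ± 0.14, and Hsd17b12, which elongates fatty acids and can reduce estrone, had 0.02 ± 0.09. Hsd17b12 also lay in the corner blocks. Its difference was -0.12 with a loess curve for each block and 0.31 with no background correction. Cyp11a1 has no fold, since it was not detected in either group.

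Of 29 genes of steroid conversion and inactivation, 5 were on the array and measured, with 0 past either test. Hsd17b4, a peroxisomal enzyme that oxidises estradiol and fatty acids, had -0.09 ± 0.14, and the mitochondrial Hsd17b10 had -0.07 ± 0.15. H6pd, which supplies NADPH to the glucocorticoid-activating reductase, had -0.11 ± 0.08. Akr1c14, a 3-alpha-hydroxysteroid dehydrogenase, had levels of -0.14, -0.22 and 0.16 in menopausal/diabetic animals, against 0.26, 0.28 and -0.34 in diabetic animals. It differed among the diabetic animals (adjusted p = 0.016, limma's F test), where animal 3 was the lowest, and its group difference was -0.13 ± 0.19. Cyp7b1, the oxysterol hydroxylase, was detected on 0 arrays.

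**Figure D4:**
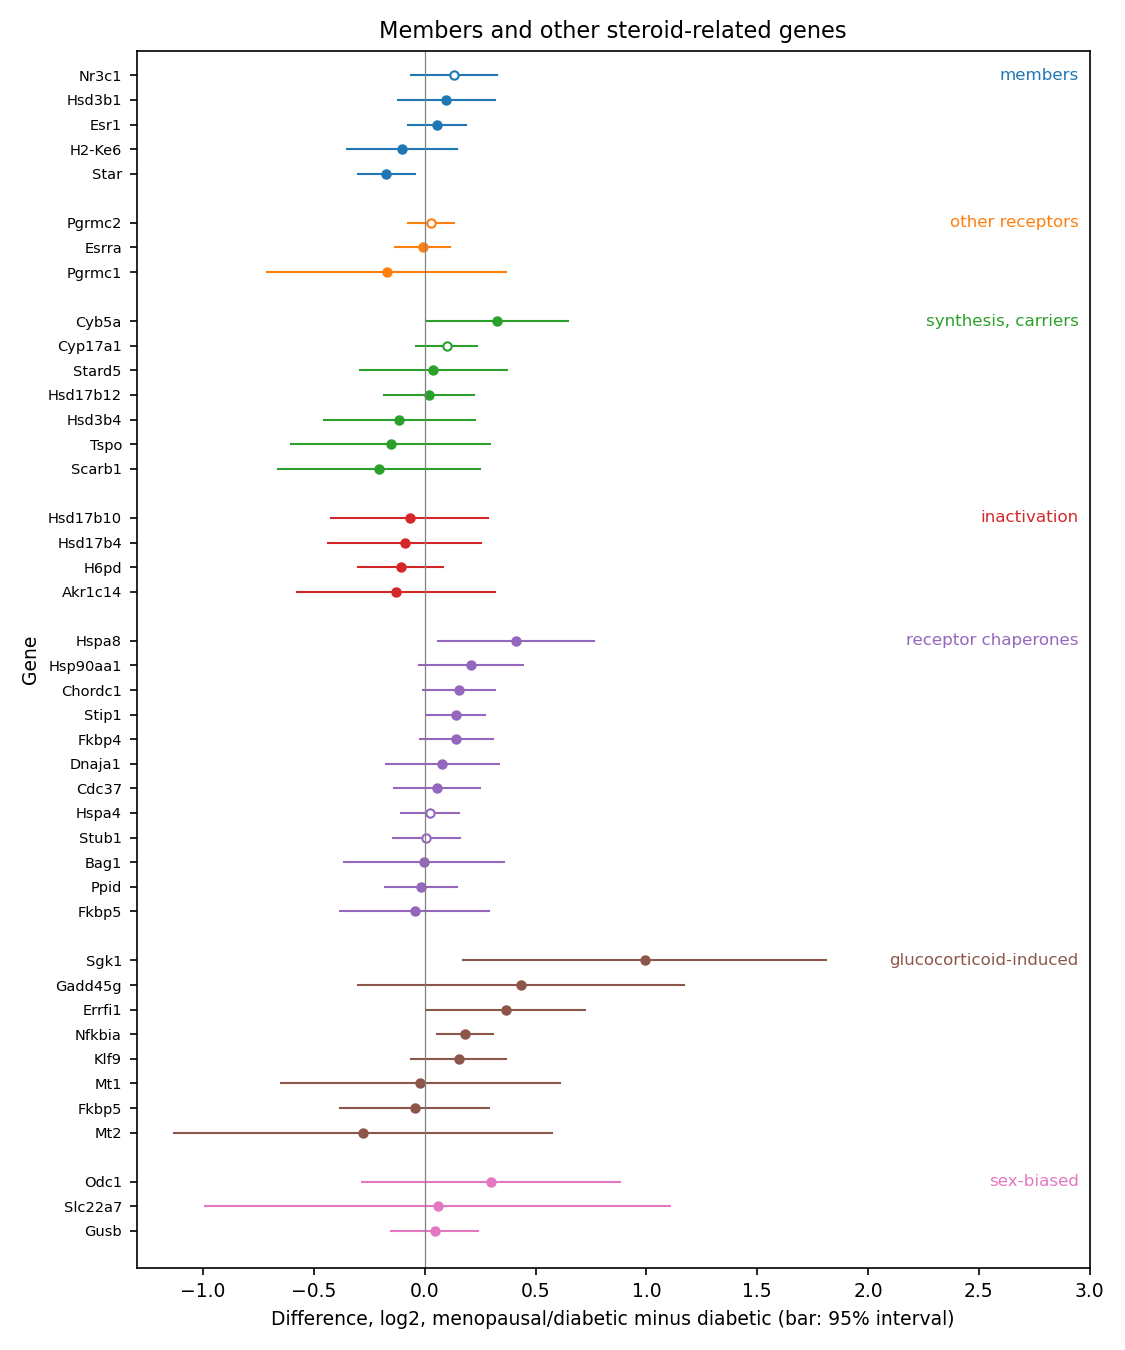
Difference on the log2 scale, menopausal/diabetic minus diabetic, with its 95% interval, for the members and the measured genes of 6 lists that were detected on at least 1 array, with open points for genes detected on fewer than 6 arrays. Of the members, the interval of Star, -0.30 to -0.05, leaves out 0, and Sgk1 has the largest difference shown, 0.99. Intervals rest on the scatter of the animal levels, and the residual SD between arrays does not enter them.

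Steroid receptors wait for hormone in complexes with chaperones, and 13 of 15 chaperone genes were measured, 9 with a higher and 4 with a lower mean in menopausal/diabetic animals. None passed the adjusted test, 2 had an unadjusted p under 0.05, both on the higher side, and the median difference was 0.06. Hspa8, the constitutive 70-kilodalton chaperone, had levels of 0.14, 0.51 and -0.03 in menopausal/diabetic animals, against -0.08, -0.15 and -0.38 in diabetic animals. The groups did not overlap, and the difference was 0.41 ± 0.15 (adjusted p = 0.559, limma). Stip1, which links the HSP70 and HSP90 chaperones, had 0.14 ± 0.05, but 0.02 with a loess curve for each print block, and 1 of its 3 clones had this sign. Hsp90aa1, an HSP90 that holds the receptors, had 0.21 ± 0.10, but 0.07 as the mean of its clones, of which 6 of 9 had this sign, and 0.09 without menopausal/diabetic animal 1. Its cochaperone Chordc1 had 0.15 ± 0.07, but 0.07 as the mean of its clones and 0.001 without diabetic animal 3. The mean of the Hspa8 clones was 0.26.

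Of 17 coregulators, 9 were measured, 3 with a higher and 6 with a lower mean, and 0 passed either test. The RNA and protein coactivator Sra1 had levels of -0.24, 0.14 and -0.23 in menopausal/diabetic animals, against -0.03, -0.25 and 0.60 in diabetic animals. Diabetic animal 3 was again the farthest from the rest, and the difference was -0.22 ± 0.22, which was 0.08 without that animal. Sra1 differed among the diabetic animals (adjusted p = 0.0229, limma's F test). Phb2, a repressor of estrogen receptor activity, had -0.14 ± 0.08 and the coactivator Ncoa2 0.12 ± 0.13, and without diabetic animal 3 these were -0.03 and -0.04.

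Among genes known to be induced by glucocorticoid, 8 of 22 were measured, 5 with a higher and 3 with a lower mean, and the median difference was 0.17. None passed the adjusted test, and 3 had an unadjusted p under 0.05, on the higher side. Sgk1, a kinase that promotes sodium uptake in the nephron and is also induced by aldosterone, had levels of -0.25, 0.90 and 0.84 in menopausal/diabetic animals, against -0.80, -0.65 and -0.04 in diabetic animals. Menopausal/diabetic animal 1 lay below diabetic animal 3, so the groups overlapped, and the difference was 0.99 ± 0.34 (adjusted p = 0.549, limma). Leaving out 1 animal gave 0.66 (without menopausal/diabetic animal 3) to 1.57 (without menopausal/diabetic animal 1), and the deposited log2 table under its own titles gave -0.52. Nfkbia, the inhibitor of NF-kappaB, had 0.18 ± 0.05 in the corner blocks, and 0.10 with a loess curve for each block. Errfi1, a feedback inhibitor of the EGF receptor, had 0.37 ± 0.15. Its groups overlapped, as menopausal/diabetic animal 1 (-0.14) lay below diabetic animals 2 (-0.13) and 3 (-0.07). The growth-arrest gene Gadd45g had 0.43 ± 0.31, with 0.17 to 0.66 when 1 animal was left out.

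Kidney genes known to differ with sex hormones were represented by 3 of 15 genes, all with intervals across 0. Odc1, the first enzyme of polyamine synthesis and an androgen-induced gene of mouse kidney, had 0.30 ± 0.24, which was 0.10 without diabetic animal 3 and 0.09 without menopausal/diabetic animal 3. The lysosomal glucuronidase Gusb had 0.04 ± 0.08, with -0.11 to 0.21 when 1 animal was left out, and the organic anion transporter Slc22a7 had 0.06 ± 0.44, with -0.38 without diabetic animal 3. Odc1 and Slc22a7 differed among the diabetic animals (adjusted p = 0.0137 and 0.00377, limma's F test), where animal 3 was the lowest. Of 14 genes known to respond to estrogen, mostly in uterus and breast, 10 were measured, Esr1 among them, 5 with a higher and 5 with a lower mean, at a median of 0.02. Without Esr1, 4 of 9 had a higher mean and the median was -0.02. Igfbp4, a binding protein that restrains insulin-like growth factors, had levels of 0.30, 0.16 and 0.46 in menopausal/diabetic animals, against -0.45, 0.13 and -0.60 in diabetic animals. The groups did not overlap, and the difference was 0.61 ± 0.19 (adjusted p = 0.537, limma). Leaving out 1 animal gave 0.36 (without menopausal/diabetic animal 3) to 0.82 (without diabetic animal 2). Without diabetic animal 2, when 44 features passed, its adjusted p was 0.0377 (limma). Pdzk1, a scaffold of the tubular brush border, had 0.53 ± 0.31, with a level of -1.01 in diabetic animal 3, and leaving out 1 animal gave 0.32 to 0.90. The cyclin Ccnd1 had 0.31 ± 0.36, with a level of -1.05 in diabetic animal 3, and -0.11 without that animal. Ccnd1 differed among the diabetic animals (adjusted p = 0.000405, limma's F test).

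Over these 8 lists, 57 measured genes were not members, and 7 of them (12.3%) had an unadjusted p under 0.05, all on the higher side, against 8.37% of all features and 5.11% on that side. Of these 7, Cyb5a and Nfkbia lay in the corner blocks, where 31.3% of features had an unadjusted p under 0.05 (limma). With a loess curve for each block, Cyb5a was -0.02 and Stip1 0.02. Hspa8, Sgk1, Nfkbia, Errfi1 and Igfbp4 were then 0.10 to 0.92. All 57 were measured in the same animals and the lists were chosen with earlier results known, so this is a count and no test. The level farthest from 0 was that of diabetic animal 3 for 25 of the 57 genes, and that of each other animal for 4 to 8. Without diabetic animal 3, 32 of the 57 differences fell below 0.5 times their value or changed sign, against 6 to 16 without any other animal. The counts for levels and for animals left out are not given over all features, so they do not set these genes apart. Of the 57 genes, 8 differed among the diabetic animals at an adjusted p under 0.05 in limma's F test. Of all 9955 features, 146 (1.47%) did.

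The named genes whose log ratios were most like those of each member were read over the 12 arrays among 5868 genes, as a description of arrays that share animals and dyes. For Esr1 they were Ctbp1 (r = 0.89), Gigyf2 (0.88) and Dcn (0.87), and for Nr3c1 Patj (0.97), BC035044 (0.93) and Fxyd4 (0.93). Hsd3b1 was most like Mbd1 (0.91), Ces1f (0.90) and D730048J04Rik (0.86), the last detected on 0 arrays. H2-Ke6 was most like Ndufb10 (0.92), Zfp592 (0.87) and Cryzl2 (0.87), and Star most like Stk10 (0.93), Entpd2 (0.89) and Rimbp3 (0.89). Among the members themselves, Star correlated at r = -0.69 with Esr1 and at r = -0.68 with Nr3c1, and Esr1 at r = 0.69 with Nr3c1.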

How the data were processed

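Dual-colour scanner files were used, 1 per array, with 31200 spots in 48 print blocks. Per the file headers, they give each spot's mean intensity and its median local background intensity in each channel, unscaled, and a score of signal to noise that the scanner software set. The score was not used in the tests, but the software's detection status was counted, a clone being detected if either spot was. The authors also deposited a table of log2 ratios, and how they were normalized is not stated in the labels. Of its 12 columns, 0 correlated best with the array of the same title (best Spearman correlations 0.586 to 0.948), and its column medians were -0.0548 to 0.0911, so it served as an alternative only. Its match put Alexa Fluor 546 over 647. Identifiers inside 11 of 12 scanner files fit the titles, and the array of diabetic animals 2 and 3 carries another identifier for both dyes.

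Spots were named from the platform annotation by probe number, counted from the bottom of the slide. In that order clones of 1 gene had like brightness (r = 0.537 over 2405 pairs, 0.0444 in file order). Of the spots, 18382 had 1 gene symbol, 508 several and 12310 none, and 18170 had a gene number in the RefSeq gene table. Clone sequences and coordinates were not used here.

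Using limma 3.58.1 under R 4.3.3, the normexp method (offset 50) removed background and ratios were normalized by loess within arrays. Spots of a clone were averaged, the dimmest 25% of clones were left out (3904, leaving 11696), and the brightest clone stood for a gene, which left 5869 named genes and 4086 unnamed clones. A level per animal and a dye term were fitted to the 12 log ratios by least squares. Groups of 3 animals were then set against each other on those levels (lmFit and eBayes, two-sided), and p-values were adjusted by Benjamini-Hochberg over all 9955 features at 0.05. An exact permutation of 3 against 3 cannot give a p under 0.1. The number of arrays limits the precision. The labels number the animals but do not say what a number marks. The fitting was tested on simulated data.

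Members and lists were chosen with earlier results of these data known. Named were all member clones, each list's genes with an unadjusted p under 0.05 and its 3 largest differences, every measured gene of the lists of receptors, synthesis and inactivation, the 3 genes most like each member, and the markers shared with another list or brightest. Alternatives changed background, normalization, filters, clone choice, input table, arrays and animals used, and the replicate block.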

Additional observations from a re-analysis of the deposited data

How the results depend on the processing

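No alternative brought a member past the adjusted threshold. The count of features past it was 0 in the main setting and under every other alternative except scaling between arrays, which gave 2, and leaving out 1 animal, which gave 0 to 44 (44 without diabetic animal 2). Nr3c1 kept its sign under all 22 such alternatives other than those added later, with differences of 0.03 to 1.16. For several of these the main difference of 0.13 returns by construction, among them the brightness filters, the mean of clones and the between-group arrays alone. The count of kept signs is therefore no measure of robustness. Esr1 turned to -0.0256 with no background correction and to -0.0324 in the deposited table under its own titles, and leaving out 1 animal gave -0.00821 (without diabetic animal 3) to 0.11. Hsd3b1 turned to -0.00298 and -0.00669 under the same alternatives, and leaving out 1 animal gave -0.00451 (without diabetic animal 3) to 0.27. H2-Ke6 turned to 0.0226 with median centring and to 0.0489 in the deposited table, and leaving out 1 animal gave -0.23 to 0.0412 (without menopausal/diabetic animal 2). Star turned to 0.14 in the deposited table under its own titles, was -0.64 with that table's columns matched to the arrays, and leaving out 1 animal gave -0.27 to -0.03. The causes were not tested, but the deposited columns and arrays do not match by title. Among alternatives added after the data were seen, H2-Ke6 was 0.00842 without the array of diabetic animal 3 and menopausal/diabetic animal 1, where 4 of 5 members fell below 0.5 times their difference or reversed (Star -0.08, Hsd3b1 0.03, Esr1 0.02). Star was 0.0129 with undetected arrays left out, where Nr3c1 gave no value.

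Deviations of same-numbered animals of the groups correlated at -0.04, -0.37 and -0.17. These values gave no sign of a pairing by number, but they cannot exclude one, and the labels do not state it. With the number as a replicate block the differences were unchanged by construction, at 0.06 for Esr1, 0.13 for Nr3c1, 0.10 for Hsd3b1, -0.10 for H2-Ke6 and -0.17 for Star. The count past the threshold was 0, with 677 features at an unadjusted p under 0.05, and the unadjusted p of Star was 0.0473 (limma). Features that differed among diabetic animals numbered 276 with a loess curve per print block and 46 with no background correction, against 146 in the main setting. Low signal over background limits Nr3c1 and both dimmer Esr1 clones, detected on 8 arrays or fewer. It also limits Star on the arrays that set diabetic animal 3 against a menopausal/diabetic animal.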
